A study of Mus musculus with 3 samples.

Results

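The mRNA levels of 8 genes for the synthesis, breakdown and binding of hyaluronan were examined in cardiac myofibroblasts in 3 states of attachment, with 1 array per state. The genes were the synthases Has1, Has2 and Has3, the hyaluronidases Hyal1 and Hyal2, the receptor Cd44, and the matrix binders Vcan and Tnfaip6. They were found as the probes whose RefSeq transcript name, without its version, belonged to one of these genes. This gave 15 of the 55681 probes on the array and a probe for all 8 genes. Of them, 7 passed the filter for signal over background on 1 array or more and so were among the 15394 genes compared, and Has3 was not.

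The cells came from infarcted hearts of male C57BL/6J mice, taken at day 3 after the left anterior descending artery had been tied off for good. The labels give the age as 8 weeks in one field and 10 weeks at surgery in another. Heart cells that attached to plastic overnight were passed over a magnetic column, and those without CD45, a surface protein of leukocytes, were kept as myofibroblasts in every group. Adherent cells were grown on plastic plates, non-adherent cells were detached from plates and held in suspension, and re-adherent cells were returned from suspension to plates. Each RNA sample was a mixture from several hearts, so variation between animals was not measured, and the states were collected in sequence, so that time in culture and state cannot be told apart. By the paper, most cells were lost in suspension culture through anoikis, death on detachment, so survival and state cannot be told apart either. The comparison was made by the study to find genes that depend on substrate support.

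Hyaluronan is a long, unsulphated sugar polymer of the extracellular matrix, extruded from the cell by synthases in the plasma membrane that join UDP-glucuronic acid and UDP-N-acetylglucosamine. Hyaluronidases cut the polymer, cell surface receptors such as CD44 bind it and take it up, and proteins such as versican and TSG-6 (the product of Tnfaip6) tie it into larger complexes. After myocardial infarction hyaluronan builds up in the injured wall, and in cultured fibroblasts a hyaluronan coat is part of the change to myofibroblasts.

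The arrays lay on 1 slide and were scanned together. Of 59305 non-control spots, between 53.9% and 59.9% were well above background, and the 75th percentile of the signal, to which each array was scaled, lay between 541.3 and 696.6 intensity units. All differences below are log2 ratios of normalised signal (log2 processed signal minus the log2 of that percentile). Signals are given in intensity units as the scanner software wrote them, before scaling. The errors are the technical errors that the scanner software assigned to the spots, with a median of 0.20 for the difference in each pair of arrays. No difference has a replicate check, and none has a p-value. A gene changed over 2-fold is called higher or lower, and for a probe not well above background on 1 array only a bound of the fold is given. The labelled cell type was checked on 12 fibroblast and myofibroblast genes, and all 12 were well above background on each array. Their summed normalised signal was 2352 in adherent, 910.8 in non-adherent and 2132 in re-adherent cells. The contractile genes Acta2 (435300, 4690 and 345300 units) and Tagln (370300, 6281 and 353300 units) were the brightest of them in adherent and re-adherent cells. In suspension the brightest were Col1a2 (183800 units), Dcn (156000) and Col1a1 (121000), and Acta2 and Tagln added little to the sum. By gene, 6 of the 12 were over 2-fold lower in suspension, 2 were higher (Lum at 3.56 and Dcn at 1.70) and 4 were within 2-fold.

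In suspension, Has2 and Tnfaip6 were lower and Hyal1 was higher than in adherent cells. These were 2 genes lower and 1 higher among the 7, while the shares over all genes at 2-fold were 14.7% lower and 17.2% higher. On return to plastic, Cd44 and Tnfaip6 were higher, and Hyal1 and Has1 were lower, than in suspension. Over all genes the shares for that step were 16.3% lower and 15.6% higher. Between re-adherent and adherent cells, Has2 was lower and no gene of the 7 was higher, against 4.9% of all genes lower and 4.84% higher. The calls for Cd44 and Tnfaip6 on re-adhesion lay close to 2-fold: without scaling, or with the authors' table, neither of them passed it. The median difference of the 7 genes was -0.78, -0.22 and -0.67 for the 3 pairs in that order, beside -0.07, 0.08 and 0.07 over all genes. The 7 genes did not move together, as their values ran from -2.36 to 2.37 in suspension alone.

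**Figure D1:**
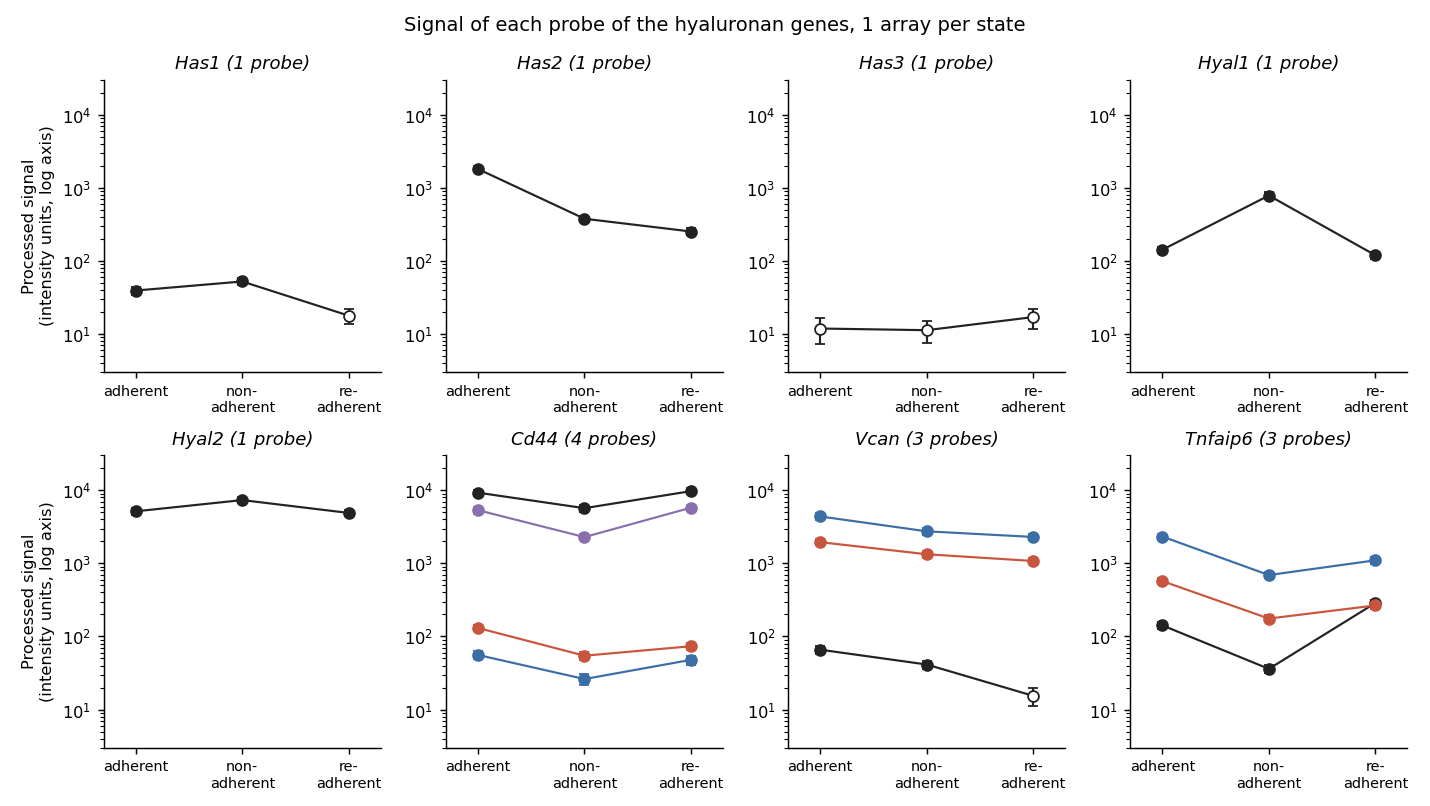
Processed signal of each of the 15 probes of the 8 hyaluronan genes (intensity units, log axis) in the 3 states. Each line is 1 probe, bars are the scanner software's error of the spot, and open points were not well above background. Has2 went down and stayed down, Hyal1 peaked in suspension, and all probes of Cd44 and Tnfaip6 were lowest there. Heights of different probes are not comparable.

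Has2, the main hyaluronan synthase of fibroblasts and of the developing heart, gave a signal of 1804 ± 181 intensity units in adherent, 375.6 ± 37.7 in non-adherent and 251.3 ± 25.6 in re-adherent cells (technical error, 1 array each). Only the adherent array was high, and the level did not come back on plastic. The log2 difference between non-adherent and adherent cells was -2.36 ± 0.21, a 5.14-fold lower level. From suspension to re-adhesion it was -0.22 ± 0.21, about as large as its technical error. Re-adherent cells thus lay 5.97-fold below adherent cells (-2.58 ± 0.21). In that pair only 0.4% of all genes had a lower value than Has2, and in suspension 4.0% had. Under the 10 other ways of processing the data that were tried, this value ran from -3.01 to -2.32.

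The Has2 locus also holds Has2os, an antisense RNA whose gene overlaps Has2, and it was looked at after the values of Has2 were known. The Has2os signal was 87.1, 58.6 and 55.6 units in adherent, non-adherent and re-adherent cells. It was dim on all 3 arrays, though well above background. Its differences were -0.67 ± 0.24 in suspension, 0.29 ± 0.26 on re-adhesion and -0.38 ± 0.26 between re-adherent and adherent cells. None reached 2-fold.

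Has1, another synthase, was near the limit of detection, with 39.1 ± 5.3 units in adherent, 52.0 ± 6.0 in non-adherent and 17.7 ± 4.3 in re-adherent cells. The re-adherent spot was not well above background. The difference in suspension was 0.31 ± 0.26. Non-adherent cells were at least 2.21-fold above re-adherent cells, and adherent cells at least 1.77-fold above them. The measured drop on re-adhesion was -1.19 ± 0.39, but with the normexp background correction it was -0.25. Has3, the remaining synthase, gave 11.8 ± 4.5, 11.2 ± 3.8 and 17.0 ± 5.2 units and was well above background on none of the arrays, so no fold is given. Has2 was therefore the 1 synthase measured in all 3 states.

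**Figure D2:**
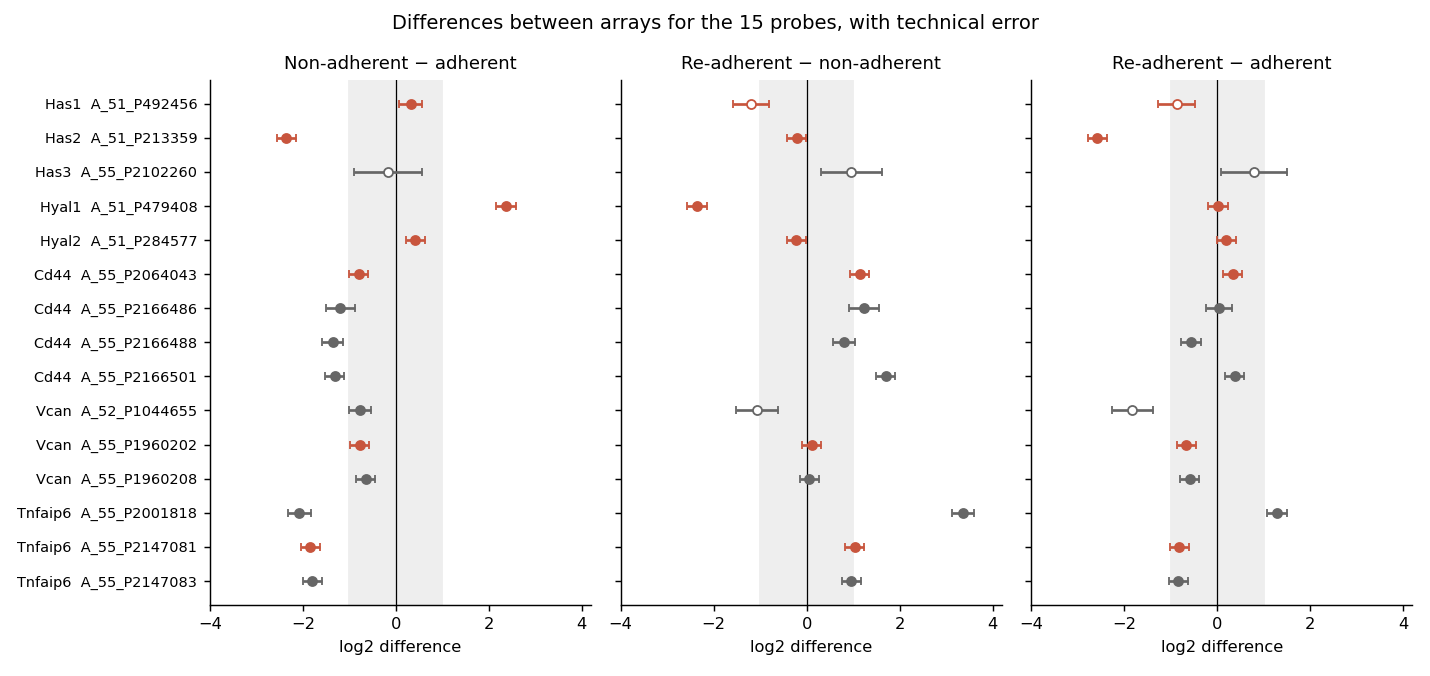
Log2 difference of normalised signal for each of the 15 probes in the 3 pairs of arrays, with the technical error as bars and the range within 2-fold shaded. Red points represent the gene in counts, grey points are its other probes, and open points rest on a spot not well above background. The Has2 probe lies at -2.36 and -2.58 against adherent cells, the Hyal1 probe at 2.37 and -2.35 for the 2 steps, and 1 Tnfaip6 probe stands at 3.36 on re-adhesion, away from the other 2.

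Hyal1, the lysosomal hyaluronidase, rose in suspension and came back. Its signal was 141.4 ± 14.8 units in adherent, 781.2 ± 78.2 in non-adherent and 118.7 ± 12.9 in re-adherent cells. The non-adherent array alone was high, and the outer arrays differed by less than the technical error (0.01 ± 0.22). The step into suspension was 2.37 ± 0.21, or 5.16-fold up, and the step back was -2.35 ± 0.21, or 5.11-fold down. In suspension 94.6% of all genes had a lower value than Hyal1, and on re-adhesion 4.0% had. Over the 10 alternatives the rise ran from 1.88 to 2.47, while the re-adherent minus adherent value took the other sign in 3 of them, down to -0.42 with spike-in scaling.

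Hyal2, a hyaluronidase anchored to the cell surface that cuts long chains into fragments, stayed within 2-fold in every pair. Its signal was 5157 ± 516, 7347 ± 735 and 4897 ± 490 units in adherent, non-adherent and re-adherent cells. The differences were 0.41 ± 0.20, -0.22 ± 0.20 and 0.19 ± 0.20, so the value for suspension was about 2 times its technical error and the others were close to it. Hyal1 and Hyal2 are neighbours on mouse chromosome 9 yet their steps into suspension were 2.37 and 0.41.

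Hyal1 also overlaps Naa80, an actin N-terminal acetyltransferase gene, and Hyal3, a further hyaluronidase gene, in the annotation, and its single probe was assigned by the transcript name in the array files. Naa80, chosen after the values of Hyal1 were known, gave 484.3, 1374 and 581.0 units. It was higher in suspension too, by 1.41 ± 0.20, and its step back was -0.88 ± 0.20. Its size in suspension was smaller than that of Hyal1, and the signs were the same. The 250 bases before the RefSeq start of Hyal1 (chr9:107576700-107576949) and of Hyal2 (chr9:107568913-107569162), both on the plus strand of GRCm38.p6, are shown for this pair of neighbours that differed in suspension. Capitals mark CATTCC or GGAATG, the core bound by TEAD factors, through which the coactivators YAP1 and VGLL3 reach DNA, and TGAGTCA or TGACTCA, the AP-1 motif. Each motif was searched on both strands, and the letters of the 2 motifs do not overlap here.
Hyal1: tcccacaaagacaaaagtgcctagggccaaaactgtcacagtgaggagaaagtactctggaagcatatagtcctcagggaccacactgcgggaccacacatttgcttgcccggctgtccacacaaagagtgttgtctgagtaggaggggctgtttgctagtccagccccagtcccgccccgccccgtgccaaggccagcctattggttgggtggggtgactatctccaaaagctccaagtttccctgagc
Hyal2: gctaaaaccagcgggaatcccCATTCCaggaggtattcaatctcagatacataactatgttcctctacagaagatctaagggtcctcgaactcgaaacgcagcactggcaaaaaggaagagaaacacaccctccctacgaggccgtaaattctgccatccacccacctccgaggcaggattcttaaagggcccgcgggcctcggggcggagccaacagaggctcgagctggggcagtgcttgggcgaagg
The Hyal1 window held neither motif and the Hyal2 window held 1 TEAD core, 229 bases before the start. Their GC contents were 56.0% and 55.6%. Of 32841 windows of this length before RefSeq starts, 12.6% held a TEAD core and 4.5% an AP-1 motif. A match in such a window is a description of letters only.

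The 5 genes nearest to Hyal1 over the 2 steps, among 13479 genes well above background on all arrays, were Slc28a2b, Xlr4b, Clec4b1, Gpnmb and Cd93, at Euclidean distances of 0.06 to 0.09 on the log2 scale. Their steps into suspension ran from 2.33 for Slc28a2b to 2.45 for Cd93. Gpnmb encodes a lysosome-associated glycoprotein of macrophages, Clec4b1 a lectin of myeloid cells and Cd93 a receptor of endothelial and myeloid cells. The likeness rests on 2 differences from 3 arrays. Hyal1 was taken for this comparison as the gene of the 7 with the largest change in suspension, but Has2 (-2.36) differed from it in size by less than the technical error, and the order turned with quantile normalization, spike-in scaling and normexp.

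Most macrophage and endothelial marker genes moved with Hyal1. Of 16 macrophage markers measured, 15 were over 2-fold higher in suspension and 14 over 2-fold lower on re-adhesion, and their summed normalised signal was 225.2, 1393 and 467.5 in adherent, non-adherent and re-adherent cells. Ptprc, which encodes CD45, the protein the cells were depleted of, gave 355.4, 2441 and 531.7 units. The exception in suspension was the Itgam probe that stood for its gene, at -0.84, while its other probes were at 1.63 and 1.96. That probe stood at 0.68 on re-adhesion, where its other probes were lower. Cx3cr1, with 416.1, 2837 and 8492 units, went against Hyal1 on re-adhesion. It rose by 1.95, over 2-fold, and ended 4.62 above its adherent level. Of 10 endothelial markers, 7 were higher in suspension and 9 lower on re-adhesion, with sums of 23.8, 38.9 and 22.3. Tie1, Emcn and Cldn5 were not well above background in re-adherent cells. Kdr (-0.35), Tek (-0.125) and Emcn (0.46) were within 2-fold in suspension. Kdr, with 9446, 7939 and 10320 units, rose by 0.74 on re-adhesion, while its other probe stood at 1.96 and -3.18 for the 2 steps. In a bulk sample, fewer cells of a type and less RNA per cell cannot be told apart. The part of these cells in the values of Hyal1 was not tested. Between re-adherent and adherent cells, where Hyal1 stood at 0.01, 7 of the 16 macrophage markers were over 2-fold higher, with a median of 0.88, and 7 of the 10 endothelial markers over 2-fold lower, with a median of -2.00 (3 of them not well above background in re-adherent cells).

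**Figure D3:**
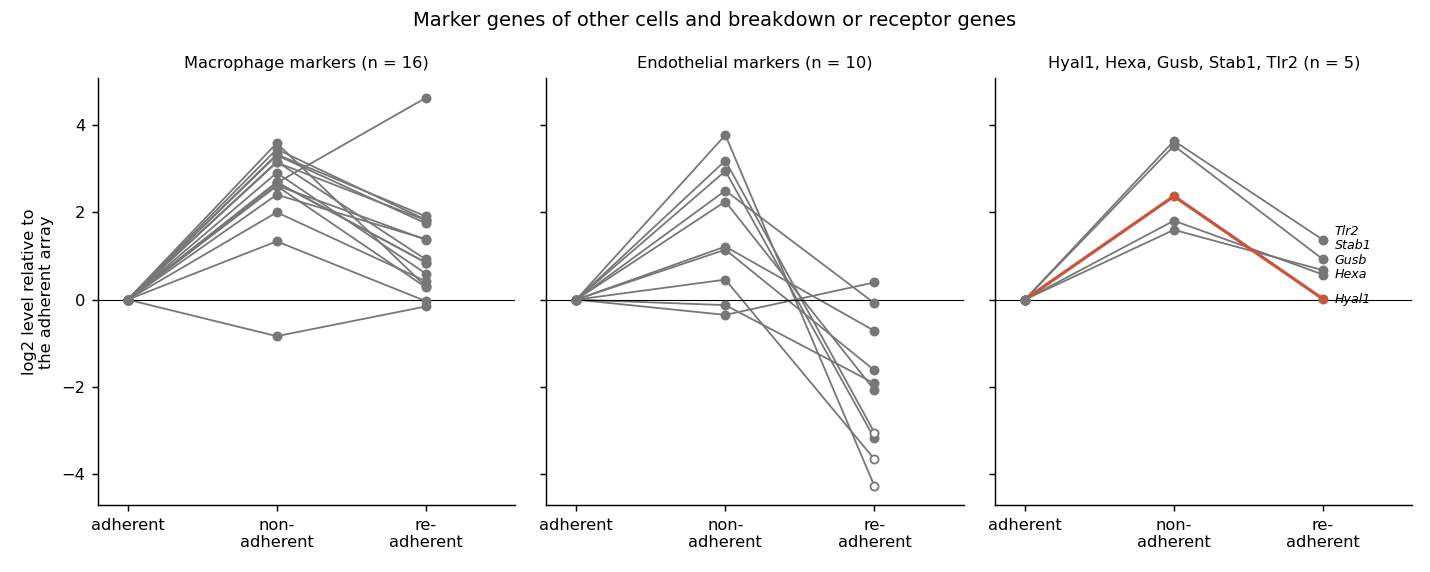
Log2 level relative to the adherent array for 16 macrophage markers, 10 endothelial markers, and 5 breakdown or receptor genes that were higher in suspension. Hyal1 is in red, with 1 line per gene. Other genes of these roles are not drawn, among them Cemip, Layn, Hmmr and Cemip2, which were lower or within 2-fold in suspension. Open points were not well above background. Of the macrophage lines 15 rise over 2-fold in suspension, and Hyal1 rises by 2.37 and ends at 0.01.

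Markers of other cell types were summed too, and the sums of different lists are not comparable. Of 9 cardiomyocyte markers 6 were measured, with summed normalised signals of 1.19, 1.98 and 3.38. Tnnt2 (592.7, 955.1 and 1646 units) held most of the signal. On re-adhesion 2 of the 6 were over 2-fold lower and 1, Tnnt2, higher, beside 16.3% and 15.6% of all genes. Actn2, Ryr2 and Pln were well above background on none of the arrays. The 3 measured of 8 markers of other leukocytes summed to 2.09, 3.22 and 2.10, and Ncr1 and S100a9 were well above background nowhere. Of the 3 measured, Kit (2.16) and S100a8 (1.44) were higher in suspension, and Cd3e stood at -0.16. The 6 mural markers summed to 50.2, 66.8 and 46.8, where Mcam and Pdgfrb held nearly all of the signal. In suspension 2 of the 6 were over 2-fold higher and 1 lower, beside 17.2% and 14.7% of all genes. The 2 higher, Abcc9 and Kcnj8, cleared background in suspension only. The 3 measured of 4 lymphatic endothelial markers summed to 60.7, 21.7 and 96.1. There Pdpn, which fibroblasts also make, held nearly all of the signal, and the defining gene Prox1 was not measured.

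Cd44, the principal hyaluronan receptor of the cell surface, gave its lowest value in suspension with all 4 of its probes, which carried the same transcript name. The probe with the highest mean gave 9281 ± 928 units in adherent, 5693 ± 569 in non-adherent and 9742 ± 974 in re-adherent cells. The adherent and re-adherent arrays were close and the non-adherent array was the lowest. The differences were -0.80 ± 0.20 (1.75-fold lower) in suspension and 1.14 ± 0.20 (2.20-fold higher) on re-adhesion. Between re-adherent and adherent cells the difference was 0.34 ± 0.20, and -0.10 with spike-in scaling.

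The next brightest Cd44 probe gave 5347, 2289 and 5788 units, with differences of -1.32 and 1.70 for the 2 steps. The other 2 were dimmer, at 55.8, 26.1 and 47.8 units, and at 130.8, 54.5 and 73.5 units. Over the 4 probes the step into suspension ran from -1.36 to -0.80 and the step back from 0.80 to 1.70. Hence 3 of 4 probes, but not the one that stood for the gene, were over 2-fold lower in suspension. The probes parted on the return, with values from -0.57 to 0.38 between re-adherent and adherent cells. CD44 is also made by leukocytes and endothelial cells. Most macrophage and endothelial markers were higher in suspension, as given for Hyal1. The part of those cells in the values of Cd44 was not tested.

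Vcan encodes versican, a large chondroitin sulphate proteoglycan that binds hyaluronan, and it was below its adherent level in both later states. The brightest of its 3 probes gave 4391 ± 439 units in adherent, 2745 ± 275 in non-adherent and 2300 ± 230 in re-adherent cells, and a probe for another transcript gave 1952 ± 195, 1333 ± 133 and 1078 ± 108. On both probes the adherent array was the highest. The brightest probe differed by -0.78 ± 0.20 in suspension, 0.11 ± 0.20 on re-adhesion and -0.67 ± 0.20 between re-adherent and adherent cells, and the second by -0.65, 0.06 and -0.59. All of these were within 2-fold. The remaining, dim probe gave 65.9, 41.3 and 15.4 units, the last not well above background, so adherent cells were at least 2.99-fold above re-adherent cells by this probe alone. The step on re-adhesion had no settled sign: 4 of the 10 alternatives turned it negative.

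Tnfaip6 encodes TSG-6, a secreted protein of inflammation that binds hyaluronan and moves heavy chains of inter-alpha-inhibitor onto it. Its probe with the highest mean gave 2328 ± 233 units in adherent, 691.9 ± 69.3 in non-adherent and 1102 ± 110 in re-adherent cells, and a second gave 572.1 ± 57.3, 175.8 ± 17.8 and 265.7 ± 26.9. By both, the non-adherent array was the lowest and the re-adherent array lay between. The first differed by -1.85 ± 0.20 in suspension (3.60-fold lower), 1.03 ± 0.20 on re-adhesion (2.05-fold higher) and -0.81 ± 0.20 between re-adherent and adherent cells. The second gave -1.80, 0.96 and -0.84, so the step on re-adhesion stood just at the 2-fold line.

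The last Tnfaip6 probe, with the same transcript name, shared the fall but not the size of the return. It gave 141.9 ± 14.7 units in adherent, 36.0 ± 4.8 in non-adherent and 287.3 ± 29.1 in re-adherent cells. By this probe the re-adherent array was the highest, 10.3-fold above non-adherent cells (3.36 ± 0.24) and 2.44-fold above adherent cells (1.28 ± 0.21). Over the 3 probes the SD of the step on re-adhesion was 1.37, while over 3483 genes with several probes the median SD was 0.18. The spots around this probe on the slide had a median difference of 0.83 on re-adhesion, against 0.35 over all spots, and less that median the probe stood at 2.53. Whether the position on the slide had a part in it was not tested. Whether Tnfaip6 came back above or below its adherent level therefore depended on the probe.

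The Tnfaip6 promoter is shown because it held both motifs searched, in the 250 bases before the RefSeq start (chr2:52037863-52038112, plus strand, GRCm38.p6), with the motifs in capitals as for Hyal1 and Hyal2.
Tnfaip6: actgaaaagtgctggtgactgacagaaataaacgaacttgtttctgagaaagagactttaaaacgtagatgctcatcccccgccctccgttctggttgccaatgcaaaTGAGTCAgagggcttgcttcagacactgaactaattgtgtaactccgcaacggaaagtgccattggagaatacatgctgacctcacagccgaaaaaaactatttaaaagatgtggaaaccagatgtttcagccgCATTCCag
The AP-1 motif TGAGTCA began 142 bases and the TEAD core CATTCC 8 bases before the start, and the GC content was 44.4%. Of the 6 hyaluronan genes with a window in the table, 2 held a TEAD core and 1 an AP-1 motif, beside 12.6% and 4.5% of all windows. Has2 and Has3 had no window in the table, so they were not searched.

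**Figure D4:**
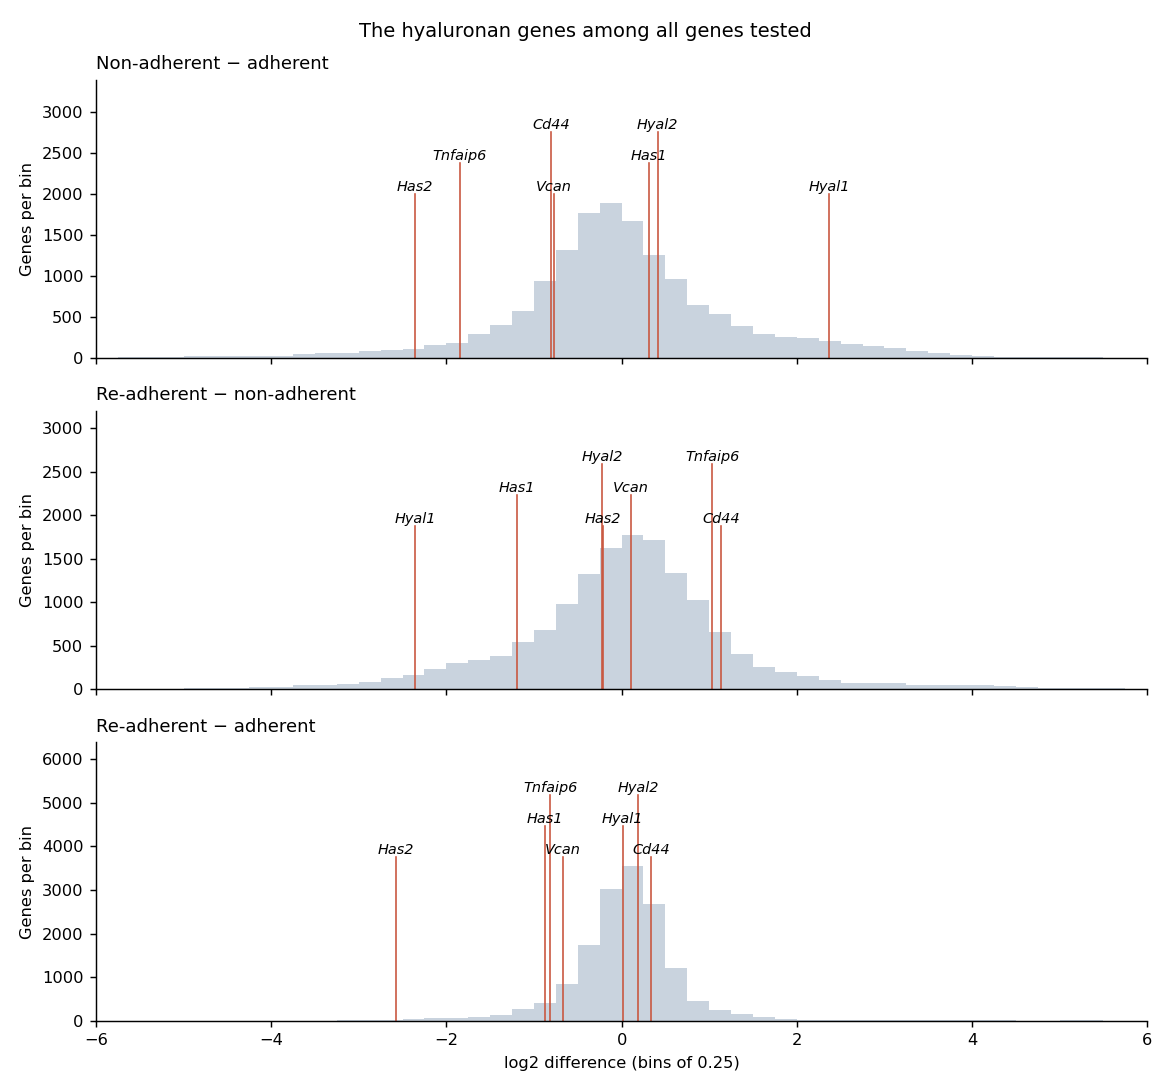
Number of genes per bin of 0.25 on the log2 scale (grey, of 15394 genes compared; values beyond 6 in either direction are not drawn) for the 3 pairs of arrays, with red lines at the 7 hyaluronan genes measured. Line height has no meaning. Has2 lies at the far left of the narrow distribution of re-adherent minus adherent, at -2.58, and Hyal1 in the right tail in suspension, at 2.37.

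A wider list of 47 genes for the supply, breakdown and binding of hyaluronan all had probes, and 38 were measured. Of these 38, 9 were over 2-fold lower and 13 higher in suspension, 11 lower and 7 higher on re-adhesion, and 2 lower and 3 higher between re-adherent and adherent cells. The shares over all genes were 14.7% lower and 17.2% higher, 16.3% and 15.6%, and 4.9% and 4.84% for the same pairs. With both spots well above background, 8 were lower and 8 higher in suspension, and 6 lower and 6 higher on re-adhesion. Hyal3, Lyve1, Stab2, Itih3 and Impg2, counted as higher in suspension, cleared background on that array alone. The bounds of Hyal3 (1.33-fold) and Impg2 (1.16-fold) lie below 2-fold. In the last pair 2 of the calls, Itih3 lower and Hyal3 higher, had neither spot well above background. The other gene called lower there, Itih5, has a bound of only 1.46-fold. The medians were -0.07, 0.21 and 0.08, close to those of all genes.

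Of 10 genes that supply the sugar substrates, 4 were lower in suspension and none higher, beside 14.7% and 17.2% of all genes, and without scaling 2 were lower. Ugdh, which makes UDP-glucuronic acid, gave 25780, 10550 and 19970 units in adherent, non-adherent and re-adherent cells, with steps of -1.39 ± 0.20 and 1.29 ± 0.20. Gfpt1, the entry enzyme of the hexosamine pathway, stepped by -1.18 and 0.75, and its other probe by -1.30 and 1.25. Gnpnat1 (-1.08 and 0.99) and Pgm3 (-1.07 and 1.17), later enzymes of that pathway, each had another probe that moved less, at -0.37 and 0.19 and at -0.35 and 0.21. All 10 had a positive step on re-adhesion with this scaling, as had 8261 of all 15394 genes, and 2 of the 10 were over 2-fold, beside 15.6% of all genes. Without scaling or with quantile normalization 7 of the 10 had a positive step, and 8 with spike-in scaling. All 10 were within 2-fold of the adherent level afterwards, where 4.9% of all genes were lower and 4.84% higher. The step of Has2 on re-adhesion was -0.22, about as large as its technical error.

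The other genes of breakdown split. Cemip, which encodes a hyaluronan-binding protein needed for hyaluronan breakdown by fibroblasts, gave 672.7 units in adherent and 661.6 in re-adherent cells, but its 10.0 units in suspension were not well above background. It was at least 51.4-fold lower in suspension than in adherent cells and at least 60.7-fold higher on re-adhesion, and its other probe moved the same way. In contrast, Hexa and Gusb, which encode lysosomal enzymes that act on the fragments, were higher in suspension. Hexa gave 14830, 55490 and 18350 units (1.81 and -1.23 for the 2 steps) and Gusb 10470, 33930 and 13880 (1.60 and -0.92). Both rose with Hyal1, but in re-adherent cells they lay 0.57 and 0.67 above the adherent level while Hyal1 stood at 0.01. Hyal3 was well above background in suspension only, at 23.9 units, and at least 1.33-fold above adherent cells. Cemip2, a cell surface hyaluronidase, stayed within 2-fold at -0.13, -0.56 and -0.69 for the 3 pairs, and Hyal4, Hyal5 and Spam1, known from other tissues, were well above background nowhere.

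Of 7 other receptors, 5 were higher in suspension and 1 lower, beside 17.2% and 14.7% of all genes. Stab2 and Lyve1 entered only through the suspension array, where they were high. With the filter on all 3 arrays 5 receptors were left, 3 higher and 1 lower. Stab1, a scavenger receptor of macrophages and sinusoidal endothelium, gave 7525, 92430 and 11850 units, with steps of 3.52 and -2.60. Stab2 and Lyve1, endocytic receptors for hyaluronan, were well above background in suspension only, at 450.6 and 102.2 units, at least 25.1-fold and 5.70-fold above adherent cells. Tlr2 (617.7, 8213 and 1326 units) and Tlr4 (583.2, 2325 and 606.3 units), innate immune receptors reported to sense hyaluronan fragments, stepped by 3.63 and -2.26 and by 1.90 and -1.58. Layn, which encodes the receptor layilin, went the other way with 1194, 482.9 and 1345 units, and steps of -1.41 and 1.84. Hmmr, a hyaluronan-mediated motility receptor also linked to cell division, stayed within 2-fold at -0.80 and 0.68. The receptors that rose did so in the same array as the macrophage markers, and the part of those cells was not tested.

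Of 7 partners of TSG-6 and of heavy chain transfer, 2 were lower and 3 higher in suspension, beside 14.7% and 17.2% of all genes. With the filter on all 3 arrays 4 partners were left, 2 lower and 2 higher. Ptx3, a pentraxin that binds TSG-6 in hyaluronan-rich matrix, gave 28570 units in adherent, 616.3 in non-adherent and 16810 in re-adherent cells (-5.63 ± 0.20 and 5.13 ± 0.20). Its direction in both steps was that of Tnfaip6. The heavy chain genes did not share a direction: Itih2 gave 217.4, 67.0 and 164.2 units (-1.80 and 1.66), while Itih4, a member of the family made in the acute phase response, gave 52.2, 1934 and 82.8 units (5.11 and -4.18). Itih3 was well above background in suspension only, at 252.2 units and at least 14.1-fold above adherent cells. Itih5 was dim, with 32.2 and 56.0 units in adherent and non-adherent cells, and was not well above background in re-adherent cells, at least 2.37-fold below suspension. Ambp, which encodes the light chain bikunin, rose in suspension from 99.5 to 469.9 units (2.14 ± 0.21) and stayed at 466.2 in re-adherent cells. Ambp and Tlr2 were the 2 genes of the list over 2-fold higher in re-adherent than in adherent cells with both spots well above background.

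The link proteins and lecticans, which fix proteoglycans to hyaluronan, showed little: Hapln3, Acan and Bcan were measured, none was over 2-fold different in any pair, and Hapln1, Hapln2, Hapln4 and Ncan were well above background nowhere. Of the remaining binders C1qbp, a protein found mostly in mitochondria, gave 29800, 15190 and 25700 units (-1.07 and 1.12), while Impg2 was well above background in suspension only, at 20.9 units. Habp4 and Impg1 stayed within 2-fold.

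**Figure D5:**
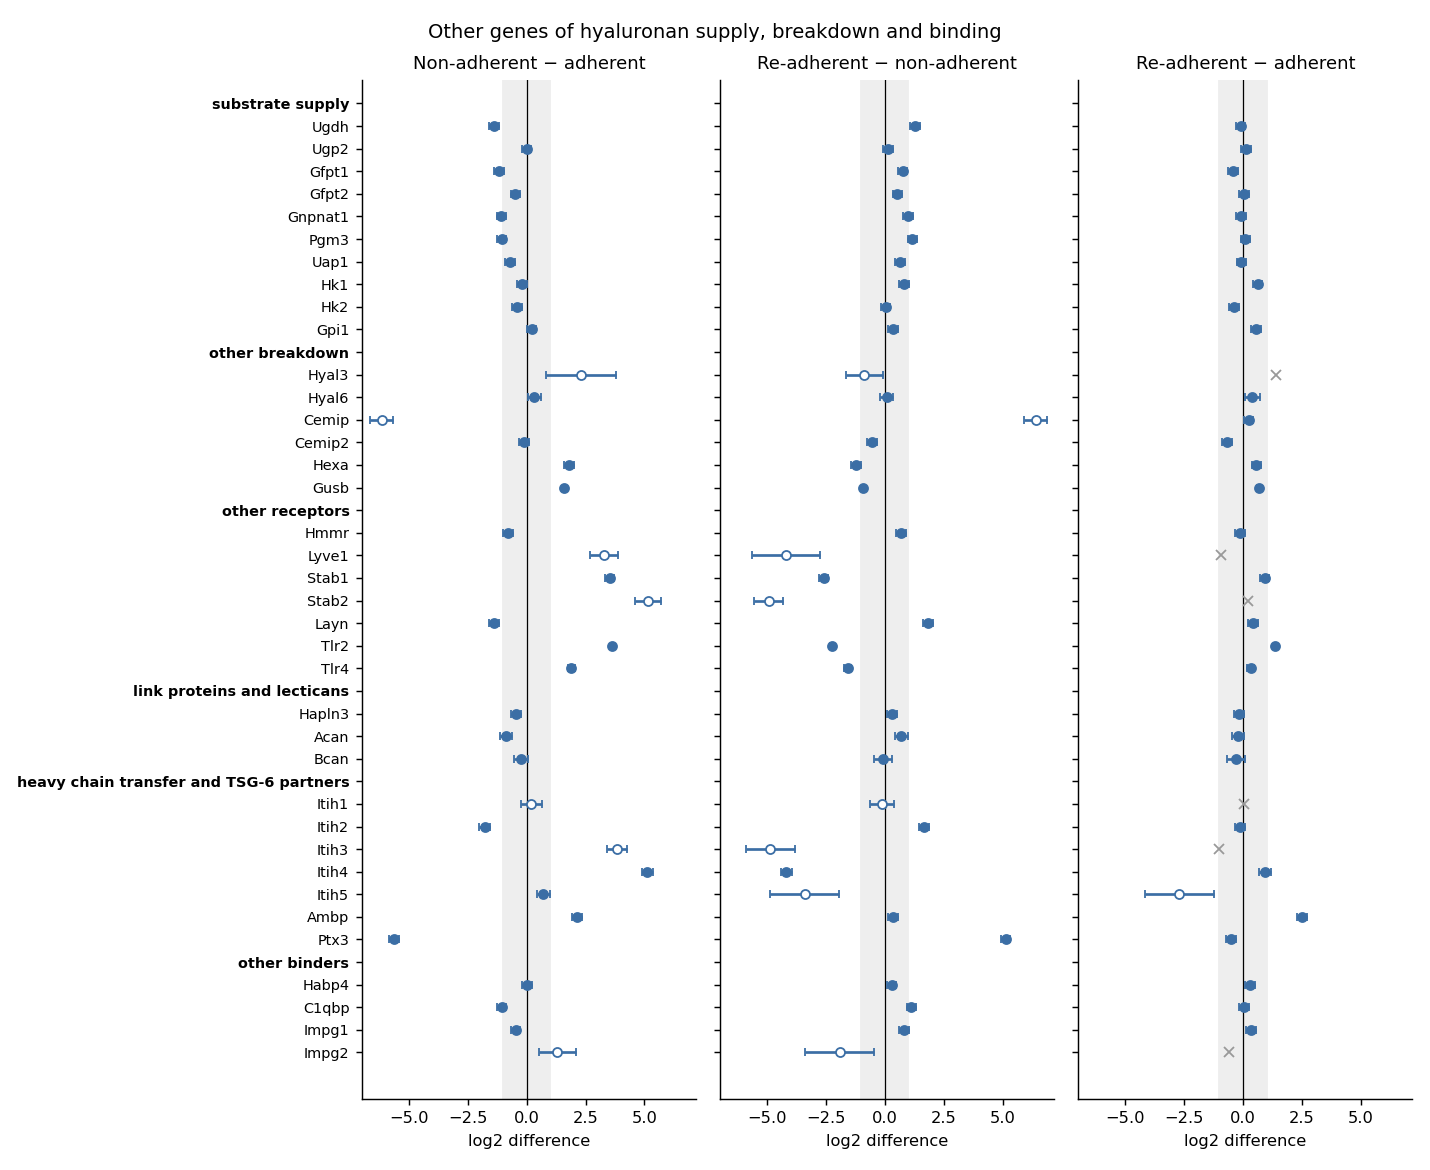
Log2 difference for 37 of the 38 measured genes of the wider list, grouped by role, in the 3 pairs of arrays, with technical error as bars and the range within 2-fold shaded. Open points rest on 1 spot not well above background, and crosses on a pair in which neither was. Substrate genes sit at or left of 0.20 in suspension, and Hexa and Gusb at 1.81 and 1.60. Between re-adherent and adherent cells most genes of the list lie within 2-fold, as do most of all genes (4.9% lower and 4.84% higher).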

How the data were processed

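Total RNA of each state was labelled with Cy3 and hybridised to 1-colour Agilent mouse arrays. The deposited files come from Agilent Feature Extraction 10.10.1.1 and hold the intensity of each spot as processed signal, which the software had corrected for background, its error, and flags. The authors' value table holds intensity too, equal to the processed signal times 1.52, 1.52 and 1.62 for adherent, non-adherent and re-adherent cells. Its normalization is not given in the sources used here, so it served as an alternative.

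Signals were scaled to the 75th percentile of the non-control spots of the array (Python 3.11.15). Outlier spots (154, 180 and 175) were left out, no spot was saturated, and spots of a probe were averaged. Transcript names were matched to RefSeq of GRCm38.p6, which named 27235 probes. A probe entered when it cleared background on 1 array or more, and the probe with the highest mean stood for its gene. A bound sets the bright spot against whichever was higher, the dim spot or the lowest spot that cleared background on that array (16.8, 14.0 and 18.3 units). The calculation was tested on simulated data. Alternatives were other scalings, normexp (limma 3.58.1, R 4.3.3, with the median signal, since the files hold no mean), other filters, the mean of the probes and other fold thresholds. The number of arrays limits the precision.

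The genes and lists were chosen with earlier results of these data known. The rule for genes named in the text was all probes of the 8 genes, genes of the wider list past 2-fold in a pair with at least 1 spot well above background, and the 5 genes nearest to the measured gene with the largest change in suspension. Other genes of the list are named to complete a role, and some genes counted in the lists are not reported here.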

Additional observations from a re-analysis of the deposited data

How the results depend on the processing

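No paired analysis was possible because there was 1 array per state, and for that reason no replicate could be left out. Of the counts over 2-fold recomputed under the alternatives, 109 stayed within 1.5 times and 35 did not. Among the 7 hyaluronan genes, 2 were lower in suspension, against 4 with scaling to the E1A spike-in probes, 1 at 4-fold and 4 at 1.5-fold. On re-adhesion 2 were lower, against 1 with normexp, 1 with probes well above background on all arrays and 1 at 4-fold. For the 2 that were higher, the count was 1 with quantile normalization, spike-in scaling or normexp, and 0 without scaling, with the authors' table or at 4-fold. Between re-adherent and adherent cells 1 was lower, against 3 without scaling, 4 with spike-in scaling, 2 with the authors' table, 2 with the mean of the probes and 4 at 1.5-fold. In the wider list, 9 lower in suspension became 2 at 4-fold and 13 higher became 8 with the filter on all arrays. On re-adhesion 11 lower became 6 with that filter and 7 at 4-fold, and 7 higher became 4 without scaling, 2 at 4-fold and 14 at 1.5-fold. Between re-adherent and adherent cells 2 lower became 1 with median scaling, 5 with spike-in scaling, 0 with normexp, with the filter or with dim signals set to a floor, 1 at 4-fold and 5 at 1.5-fold. The 3 higher became 5 with median scaling, 1 with spike-in scaling, 1 at 4-fold and 8 at 1.5-fold. Spike-in scaling moved the median of all genes to -0.37, -0.05 and -0.37 for the 3 pairs, and no scaling to 0.03, -0.29 and -0.20. The Has2 difference between re-adherent and adherent cells was -3.01 and -2.84 in these settings. Calls turned sign for Itih3 between re-adherent and adherent cells (0.12 with normexp and 0.40 with the floor) and for Impg2 on re-adhesion (0.18 with the floor). Itih3 was below the background limit on both arrays of its pair, and Impg2 on the re-adherent array. Beyond the constructions named, the cause was not tested. Has1, Has3 and the dim Vcan probe are limited by signal over background.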
